A study of Populus ussuriensis with 8 samples.

Results

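The 6 chalcone synthase loci of poplar were followed in the wounded lower ends of stem pieces from the poplar Populus ussuriensis. They were taken as a list of identifiers, chosen as the entry into flavonoid synthesis, and are 6 of the 36385 genes listed in the files. Potri.001G051500 and Potri.001G051600 carry neighbouring identifiers on chromosome 1. Potri.003G176700, Potri.003G176800 and Potri.003G176900 carry neighbouring identifiers on chromosome 3. Potri.014G145100 stands alone on chromosome 14. The first 5 are called the tandem copies below. The files give no gene names, so the enzyme name rests on that list of identifiers. The positions are read from the identifiers, and the annotation behind them was not stated. Whether copy number and positions hold in Populus ussuriensis was not tested.

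The study asked how the transcriptome moves early in adventitious root formation, with and without methyl jasmonate (MeJA), the volatile methyl ester of the wound hormone jasmonic acid. Stem pieces of in vitro plants were set on sucrose-containing Murashige and Skoog medium, and the wounded base was harvested. Of the 8 RNA-seq libraries, 2 came from cuttings on 1 µM MeJA harvested 1 h after cutting, 2 from cuttings on 1 µM MeJA at 0.5 h, 2 from untreated cuttings at 1 h and 2 from untreated cuttings at 0.5 h. All 8 come from cut stems, and no stem before cutting was analysed here. The labels state the age of the source plants in 2 places, differently, and do not say whether replicates came from separate cultures. The spread that the p-values measure, between libraries of a group, may thus be technical. Harvest and sequencing batches were not known here, and a batch common to all libraries of a time cannot be told apart from time.

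Chalcone synthase is a polyketide synthase. It joins a coumaroyl-CoA starter from the phenylpropanoid pathway with malonyl-CoA units to give naringenin chalcone, the first committed intermediate of flavonols, anthocyanins and proanthocyanidins. In many plants its genes respond to light, wounding and jasmonate, and poplar stems and leaves are known for storing proanthocyanidins. Plant genomes often carry the gene in several copies, some of them next to each other. Stem marker genes and the other enzymes of the pathway could not be followed by name, because no table pairing identifiers with gene descriptions was used here.

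Values were taken as FPKM, since their unit was not stated. FPKM are read fragments corrected for transcript length and for how many fragments a library holds. They were summed over the transcripts of a gene. Depth differed little between libraries, at 0.931 to 1.00 times that of untreated 0.5 h replicate 1. Each value of a chalcone synthase transcript came out as a whole multiple of 1 step per transcript, to within a tolerance of 0.02 of a step, in 64 of 64 cases. A step is read here as 1 counted read. Of the 40 read numbers of the tandem copies, 26 were even. Whether both mates of a read pair were counted is not given in the sources used here, so no counting intervals are printed. Reads thus appear not to have been split into fractions. Whether a read that matches more than 1 transcript or copy was counted for 1 of them or for each could not be traced.

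Potri.014G145100 carried most of the chalcone synthase signal. It stood at 63.5 and 50.8 FPKM with MeJA at 1 h, at 79.5 and 65.8 FPKM with MeJA at 0.5 h, at 42.5 and 42.7 FPKM in untreated cuttings at 1 h and at 82.4 and 93.5 FPKM in untreated cuttings at 0.5 h. The untreated 0.5 h libraries were the highest and the untreated 1 h libraries the lowest, with the MeJA libraries of both times in between. These levels rest on 2068 to 4625 counted reads per library, summed over its transcripts. They placed the gene between the percentiles 93.0 and 97.1 of all listed genes. A read counted for several of these transcripts would enter the sum more than 1 time. Its share of the summed level of the 6 genes was 78.3% in MeJA 1 h replicate 1 and between 87.5% and 94.5% in the other 7 libraries.

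The tandem copies were low by comparison. Potri.003G176800 was the highest of them, with a mean of 3.44 FPKM and a range of 2.09 to 5.18. Potri.003G176900 followed with a mean of 1.43 FPKM and a range of 0.549 to 4.15. These copies held the same order in each of the 8 libraries, above the other 3. Potri.001G051600 and Potri.001G051500 had means of 0.699 and 0.666 FPKM, and Potri.003G176700 had a mean of 0.377 FPKM. The order of these lowest 3 varied between libraries: Potri.003G176700 was above Potri.001G051600 in 5 of the 8 libraries despite its lower mean. Together the tandem copies made up 5.52% to 21.7% of the summed level. By the size of their steps the transcripts have similar lengths, the longest being that of Potri.001G051500, at 1.10 times that of Potri.003G176700.

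**Figure D1:**
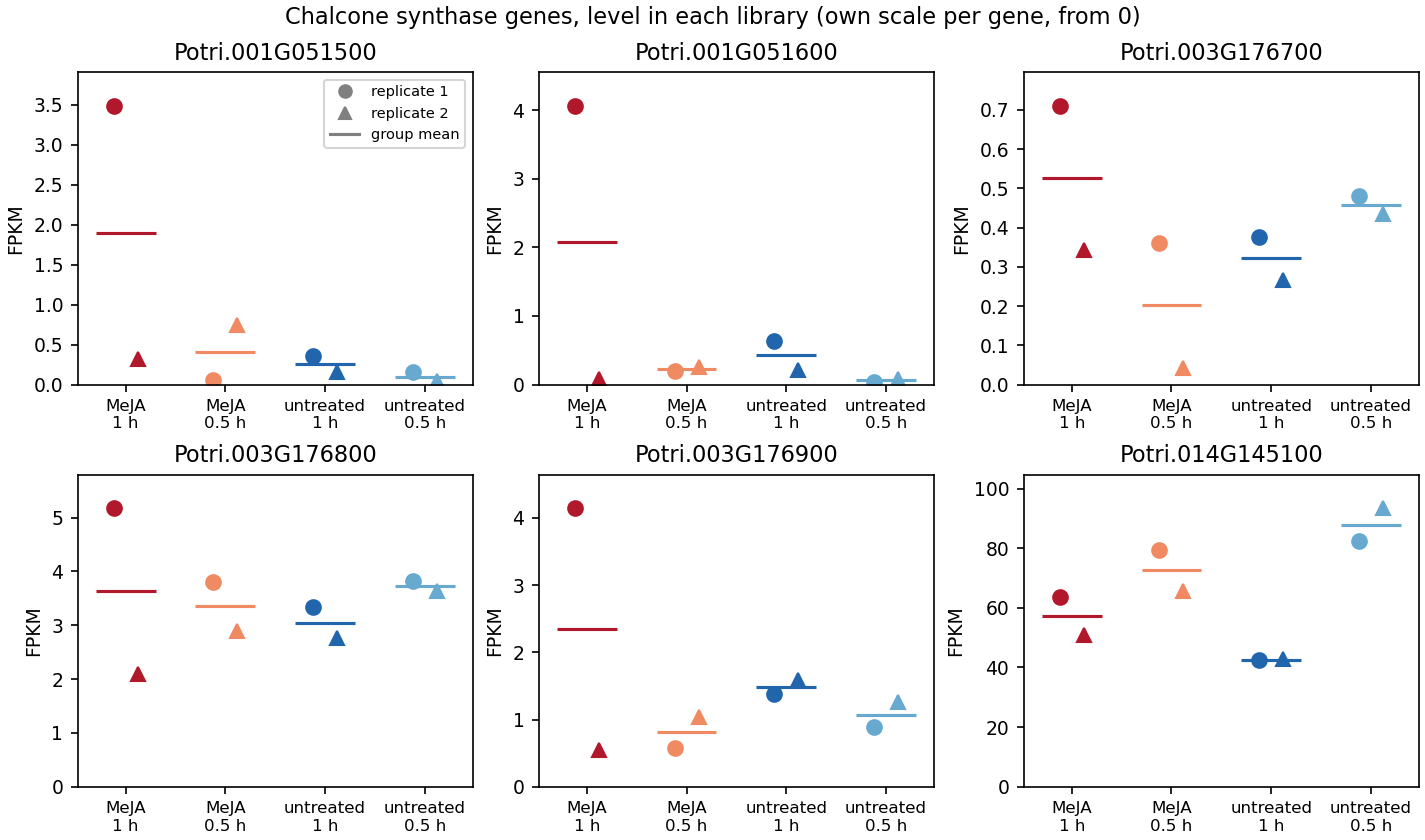
FPKM of each chalcone synthase gene (vertical axes, own scale from 0) in the 4 groups, with replicate 1 as circles, replicate 2 as triangles and the group mean as a line. Potri.014G145100 separates the untreated 1 h libraries (42.5 and 42.7 FPKM) from all others, whereas the 5 tandem copies are each highest in MeJA 1 h replicate 1.

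A gene entered the tests if it reached 1 FPKM in at least 2 libraries. This left 24347 genes and 3 of the 6 loci, Potri.014G145100, Potri.003G176800 and Potri.003G176900. Potri.003G176700 reached 1 FPKM in 0 libraries. Potri.001G051500 and Potri.001G051600 reached it in 1 library each, the same library. Tests were run with limma on log2(FPKM + 1), a scale on which changes of low genes come out too small, and p-values were adjusted over all tested genes and called at 0.05.

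The first comparison followed untreated cuttings between 0.5 h and 1 h. Potri.014G145100 averaged 42.6 ± 0.13 FPKM at 1 h and 87.9 ± 7.9 FPKM at 0.5 h (SD, n = 2 each), so 48.5% of the earlier level was left. This fall was -1.02 ± 0.14 on the log2 scale (SE; limma adjusted p = 0.00022). It was the 1 call among the 3 tested loci, where 48.6% of all tested genes were called, 33.2% lower and 15.4% higher. At an unadjusted p under 0.05 it was also the 1 locus of 3, beside 55.6% of tested genes. The change lay at percentile 6.99 of all tested genes, whose median moved by -0.19. With libraries set to a common median, the change was -0.81 and was still called (limma adjusted p = 0.0009). In bulk tissue, fewer cells of a type and less RNA per cell cannot be told apart.

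Neither of the tested tandem copies passed the test in this comparison, and whether their changes differ from that of Potri.014G145100 was not tested. Potri.003G176900 stood at 1.38 and 1.60 FPKM in untreated cuttings at 1 h, against 0.885 and 1.26 FPKM at 0.5 h. The log2 change was 0.27, with a 95% confidence interval of -0.82 to 1.35 (limma adjusted p = 0.66). Potri.003G176800 stood at 3.34 and 2.76 FPKM at 1 h, against 3.83 and 3.64 FPKM at 0.5 h. Its log2 change was -0.23, with an interval of -0.85 to 0.40 (limma adjusted p = 0.52). Both intervals include no change.

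The 3 loci below the filter rested on few reads in untreated cuttings. Potri.001G051500 had 19 and 8 counted reads at 1 h, against 8 and 2 at 0.5 h, which is 0.362 and 0.162 FPKM against 0.152 and 0.0396. Potri.001G051600 had 31 and 10 counted reads at 1 h, against 2 and 4 at 0.5 h, which is 0.638 and 0.219 FPKM against 0.0412 and 0.0857. Potri.003G176700 had 18 and 12 counted reads at 1 h, against 23 and 20 at 0.5 h. The libraries of the 2 times did not overlap for any of the 6 loci, with 3 higher and 3 lower at 1 h. The groups did not overlap for 75.6% of all tested genes, 24.8% being higher and 50.8% lower at 1 h. That background holds only genes above the filter, which 3 of the 6 loci did not pass. For Potri.001G051500 the nearest libraries of the 2 times had 8 counted reads each and were set apart by the scaling for depth alone. The sum of the tandem copies stood at 5.55 ± 0.77 FPKM at 1 h and 5.43 ± 0.055 FPKM at 0.5 h. Their share of the summed level was 11.5% ± 1.4 at 1 h and 5.83% ± 0.44 at 0.5 h (SD, n = 2 each).

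**Figure D2:**
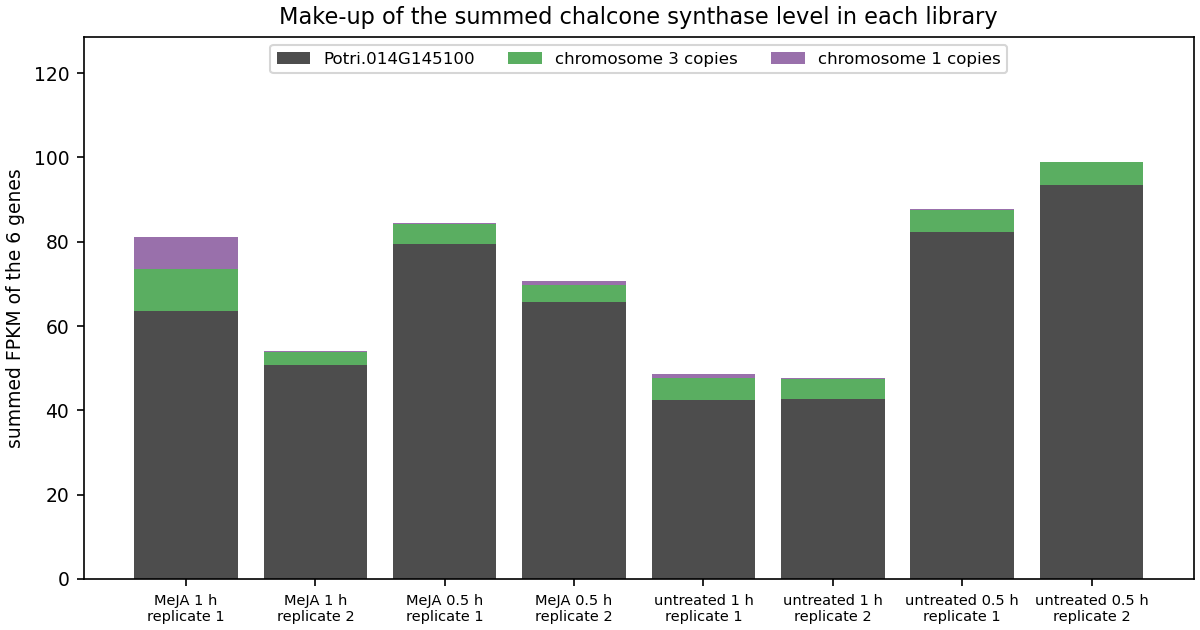
Summed FPKM of the 6 chalcone synthase genes in each library (vertical axis), split into Potri.014G145100, the 3 copies on chromosome 3 and the pair on chromosome 1. The sum is lowest in the untreated 1 h libraries, at 48.6 and 47.7 FPKM, and the chromosome 1 pair is visible chiefly in MeJA 1 h replicate 1.

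In MeJA-treated cuttings the same interval gave no call. Potri.014G145100 averaged 57.1 ± 9.0 FPKM at 1 h and 72.6 ± 9.7 FPKM at 0.5 h (SD, n = 2 each). The libraries of the 2 times did not overlap, with both 1 h libraries below both 0.5 h libraries. The log2 change was -0.34 ± 0.14 (SE), with a 95% confidence interval of -0.65 to -0.037 (limma adjusted p = 0.067). It was called when MeJA 1 h replicate 1 was left out, at -0.50 (limma adjusted p = 0.038), and the adjusted p was 0.0502 to 0.398 when any other library was left out. None of the 3 tested loci passed (0 calls), where 43.3% of all tested genes were called, 28.1% lower. At an unadjusted p under 0.05 there was 1, Potri.014G145100, beside 51.7% of tested genes. Of the 6 loci, Potri.014G145100 was the 1 whose libraries did not overlap between the times, against a background of 75.2% of tested genes, of which those lower at 1 h made up 49% of all tested.

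Over both treatments, with 4 libraries per time, Potri.014G145100 averaged 49.9 ± 9.9 FPKM at 1 h and 80.3 ± 11 FPKM at 0.5 h (SD, n = 4 each). The log2 change was -0.68 ± 0.14 (SE; limma adjusted p = 0.0018), and all 4 libraries of 1 h lay below all 4 of 0.5 h. It was again the 1 call among 3 tested loci, where 60.2% of tested genes were called, 40.9% lower. At an unadjusted p under 0.05 there was also 1, beside 64.6% of tested genes. It was the 1 locus of 6 whose times did not overlap, beside 55.4% of tested genes, 37.3% lower. Leaving out each library in turn gave a log2 change of -0.82 to -0.58, called each time. Potri.003G176900 differed by 0.46 (interval -0.24 to 1.16; limma adjusted p = 0.23) and Potri.003G176800 by -0.11 (interval -0.53 to 0.31; limma adjusted p = 0.64).

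**Figure D3:**
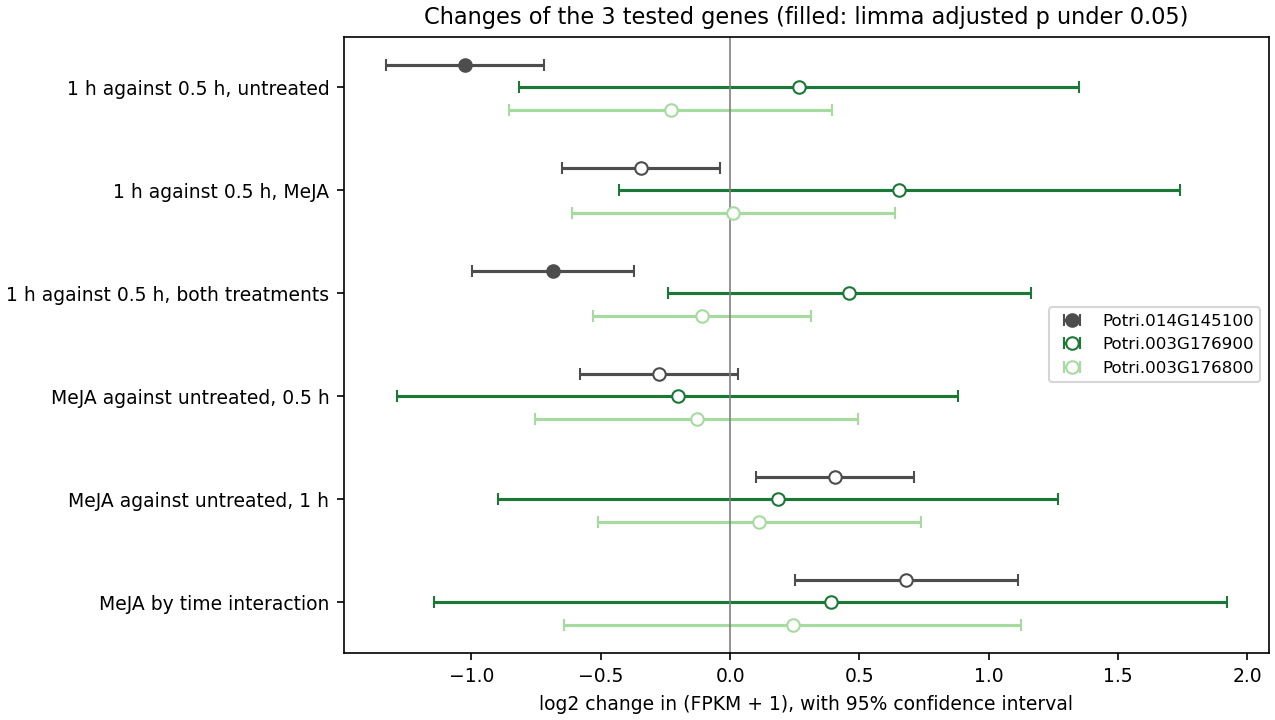
Log2 change in (FPKM + 1) with its 95% confidence interval (horizontal axis) for the 3 tested loci in each comparison, with filled points where the limma adjusted p is under 0.05. The filled points are those of Potri.014G145100 over time, at -1.02 in untreated cuttings and -0.68 over both treatments.

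The next comparisons set MeJA-treated against untreated cuttings at each time. At 0.5 h both MeJA libraries of Potri.014G145100 lay below both untreated ones, at 79.5 and 65.8 FPKM against 82.4 and 93.5 FPKM, and the MeJA mean was 82.6% of the untreated mean. The log2 difference was -0.28 (interval -0.58 to 0.030; limma adjusted p = 0.68). At 1 h both MeJA libraries lay above both untreated ones, at 63.5 and 50.8 FPKM against 42.5 and 42.7 FPKM, and the MeJA mean was 1.34 times the untreated mean. The log2 difference was 0.41 (interval 0.10 to 0.71; limma adjusted p = 0.72). No gene of the whole table was called in limma at either time (0 of 24347, a background of 0%). At an unadjusted p under 0.05 there were 1899 genes (7.8%) at 0.5 h and 1444 (5.93%) at 1 h. Of the 3 tested loci 0 were among the first and 1, Potri.014G145100, was among the second.

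For the tested tandem copies the MeJA differences were within the spread between libraries. At 0.5 h Potri.003G176800 differed by -0.13 (interval -0.75 to 0.50; limma adjusted p = 0.96) and Potri.003G176900 by -0.20 (interval -1.29 to 0.88; limma adjusted p = 0.96). At 1 h the differences were 0.11 (interval -0.51 to 0.74) and 0.19 (interval -0.90 to 1.27; limma adjusted p = 0.99 for both). All of these intervals include changes in either direction. At 0.5 h the MeJA and untreated libraries did not overlap for 3 of the 6 loci, 1 higher and 2 lower, and at 1 h for 1 of 6, higher. Of all tested genes 36.5% did not overlap at 0.5 h, 13.8% higher and 22.6% lower, and 36% did not overlap at 1 h, 20.3% higher.

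A MeJA by time interaction asked whether the change over time differed with MeJA. For Potri.014G145100 the log2 change with MeJA exceeded that without by 0.68 ± 0.19 (SE; interval 0.25 to 1.11; limma adjusted p = 0.34), at percentile 97.2 of all tested genes. None of the 3 tested loci passed, and no gene of the table was called (0 of 24347, with 2268, or 9.32%, at an unadjusted p under 0.05). Potri.014G145100 was the 1 locus of 3 among those at an unadjusted p under 0.05. Potri.003G176900 gave 0.39 (interval -1.14 to 1.92) and Potri.003G176800 gave 0.24 (interval -0.64 to 1.13). The fall of Potri.014G145100 passed the threshold without MeJA and not with it, and this does not by itself show that the falls differ.

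Over all 6 loci in a fit with no filter on low values, the median log2 change between 0.5 h and 1 h was 0.029 without MeJA and 0.50 with MeJA. The same medians over the 33596 genes of that fit were -0.086 and -0.066. For MeJA against untreated the 6 loci had medians of -0.17 at 0.5 h and 0.30 at 1 h, against -0.016 and 0.0053 over all genes. The positive medians with MeJA at 1 h came with high values in 1 library, described next, and none of the 3 loci added by that fit was called in any comparison.

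MeJA 1 h replicate 1 stood apart from the other 7 libraries in the tandem copies. Potri.001G051600 was at 4.07 FPKM there and at 0.0846 FPKM in replicate 2 of the same group, and its highest value elsewhere was 0.638 FPKM in untreated 1 h replicate 1. Potri.001G051500 was at 3.49 FPKM in replicate 1 and 0.313 FPKM in replicate 2, and its highest value elsewhere was 0.750 FPKM in MeJA 0.5 h replicate 2. Potri.003G176900 was at 4.15 FPKM in replicate 1 and 0.549 FPKM in replicate 2, where it had its lowest value in the series. In counted reads these are 192 and 4 for Potri.001G051600, 178 and 16 for Potri.001G051500, and 196 and 26 for Potri.003G176900.

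The other 2 copies on chromosome 3 showed smaller gaps in the same direction. Potri.003G176800 was at 5.18 FPKM in replicate 1 and 2.09 FPKM in replicate 2, its highest and lowest values in the series. Potri.003G176700 was at 0.711 FPKM in replicate 1 and 0.344 FPKM in replicate 2, or 33 and 16 counted reads. All 5 tandem copies were thus highest in MeJA 1 h replicate 1, which was the highest library for 9.9% of all tested genes. That background holds only genes above the filter, which 3 of these copies did not pass. The pair on chromosome 1 summed to 7.56 FPKM there, 7.52 times the next highest library, and the 3 copies on chromosome 3 to 10.04 FPKM, 1.88 times the next highest. Potri.014G145100 was at 63.5 FPKM, close to the median of the other 7 libraries (65.8 FPKM).

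On the log2(FPKM + 1) scale replicate 1 exceeded replicate 2 by 2.22 for Potri.001G051600, 1.77 for Potri.001G051500, 1.73 for Potri.003G176900 and 1.00 for Potri.003G176800. A gap of at least 1 in this direction was seen for 171 tested genes (0.702%) and in the opposite direction for 55 (0.226%). Potri.003G176900 and Potri.003G176800 are among the 171, while the pair on chromosome 1 is below the filter and outside that count. The gaps of Potri.003G176700 and Potri.014G145100 were 0.35 and 0.32. The 2 libraries had nearly the same depth, at 0.972 and 0.974 times that of untreated 0.5 h replicate 1. What sets the libraries of this group apart was not tested. The MeJA 1 h means of the 4 copies with a gap of at least 1 therefore each stand for a high and a low value, although replicates correlated closely over all tested genes (Spearman rho 0.983 to 0.987 across the 4 groups). Without replicate 1 the MeJA difference at 1 h was -0.68 for Potri.003G176900 and -0.39 for Potri.003G176800, of opposite sign to that with all libraries.

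**Figure D4:**
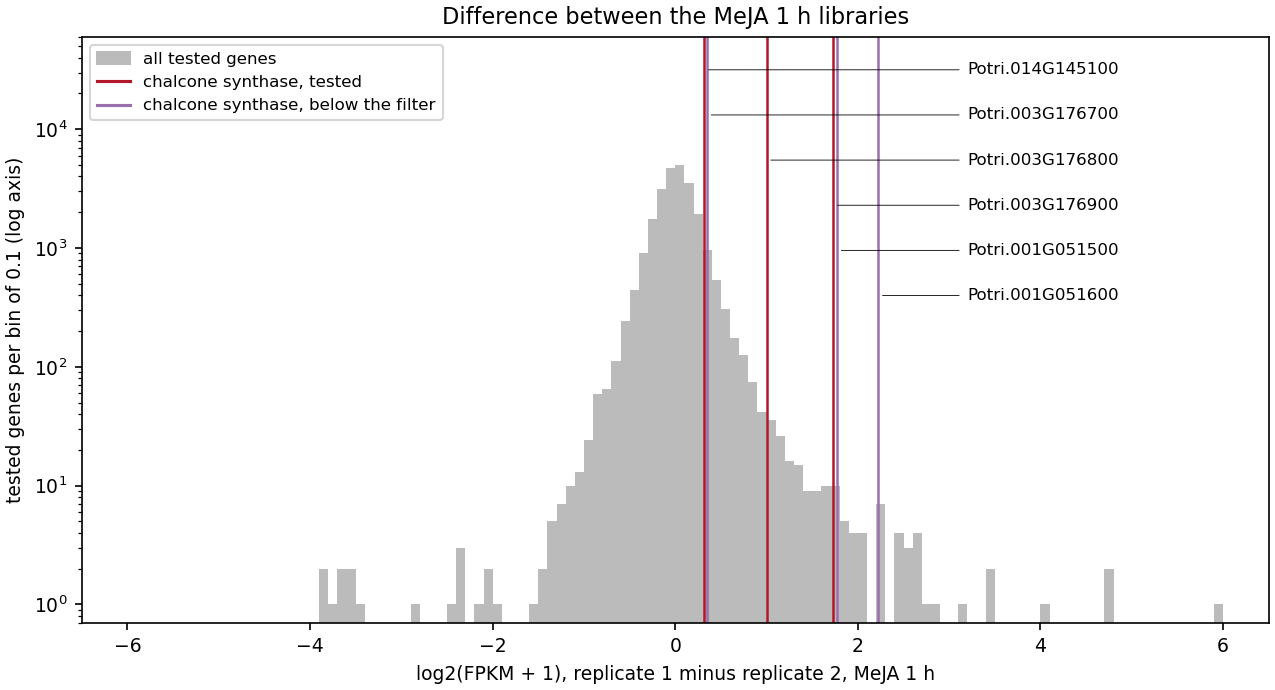
Difference in log2(FPKM + 1) between replicates 1 and 2 of MeJA 1 h (horizontal axis) for all tested genes as a histogram with a log vertical axis, and for the 6 chalcone synthase genes as lines. The 4 copies with a gap of at least 1 lie in the right tail, which holds 171 of 24347 tested genes. Potri.003G176900 and Potri.003G176800 are among the 171, while the pair on chromosome 1 was not tested.

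The correlations among the tandem copies depended on that library. Over the 8 libraries the Pearson correlations of log2(FPKM + 1) among the 10 pairs of tandem copies ranged from 0.39 to 0.94, the highest being that of the pair on chromosome 1. Without MeJA 1 h replicate 1 they ranged from -0.81 to 0.44. Correlations of the tandem copies with Potri.014G145100 ranged from -0.15 to 0.48 over the 8 libraries. Without MeJA 1 h replicate 1 they ranged from -0.61 for Potri.001G051600 to 0.63 for Potri.003G176800. The points share libraries, and several copies have few reads in most of them.

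The MeJA 0.5 h libraries also differed unevenly in the tandem copies. Potri.001G051500 was at 0.750 FPKM in replicate 2 and at 0.0614 FPKM in replicate 1 of this group, or 38 and 3 counted reads. Potri.003G176700 went the other way, at 0.0434 FPKM in replicate 2 and 0.360 FPKM in replicate 1, or 2 and 16 counted reads. Potri.003G176800 was also lower in replicate 2, at 2.90 FPKM there and 3.81 FPKM in replicate 1, while Potri.003G176900 was higher, at 1.04 FPKM in replicate 2 and 0.575 FPKM in replicate 1. The copies thus differed in both directions, and their sum stood at 4.991 FPKM in replicate 2 and 5.003 FPKM in replicate 1. Untreated replicates differed too, by 3.85 times for Potri.001G051500 at 0.5 h and 2.92 times for Potri.001G051600 at 1 h.

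Potri.014G145100 is listed with 3 isoforms, and each of the other loci with 1. How reads common to these isoforms were placed could not be traced, which limits the shares given here. Isoform 2 was the most abundant, with 44.6% to 48.1% of the gene across the 8 libraries. Isoform 3 held 26.9% to 31.4% and isoform 1 held 23.8% to 26.6%. The shares changed little beside the level: isoform 2 stood at 46.2% ± 1.9 of the gene in untreated cuttings at 1 h and at 45.7% ± 1.5 at 0.5 h (SD, n = 2 each).

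All 3 isoforms fell in untreated cuttings when 47164 transcripts were tested one by one. Of these transcripts, 20126 were called in that comparison, in either direction. Reads common to the isoforms could not be traced, so the 3 fits do not stand as separate results. Isoform 2 averaged 19.7 ± 0.74 FPKM at 1 h and 40.1 ± 2.2 FPKM at 0.5 h, a log2 change of -0.99 (limma adjusted p = 0.00027). Isoform 3 averaged 12.4 ± 1.4 FPKM at 1 h and 25.9 ± 2.5 FPKM at 0.5 h, a log2 change of -1.002 (limma adjusted p = 0.00033). Isoform 1 averaged 10.5 ± 0.50 FPKM at 1 h and 21.9 ± 3.1 FPKM at 0.5 h, a log2 change of -0.99 (limma adjusted p = 0.00047). With MeJA the changes were -0.37, -0.32 and -0.29 for isoforms 2, 3 and 1, with limma adjusted p of 0.060, 0.11 and 0.16. None of these passed, where 17146 of the 47164 transcripts were called in either direction.

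**Figure D5:**
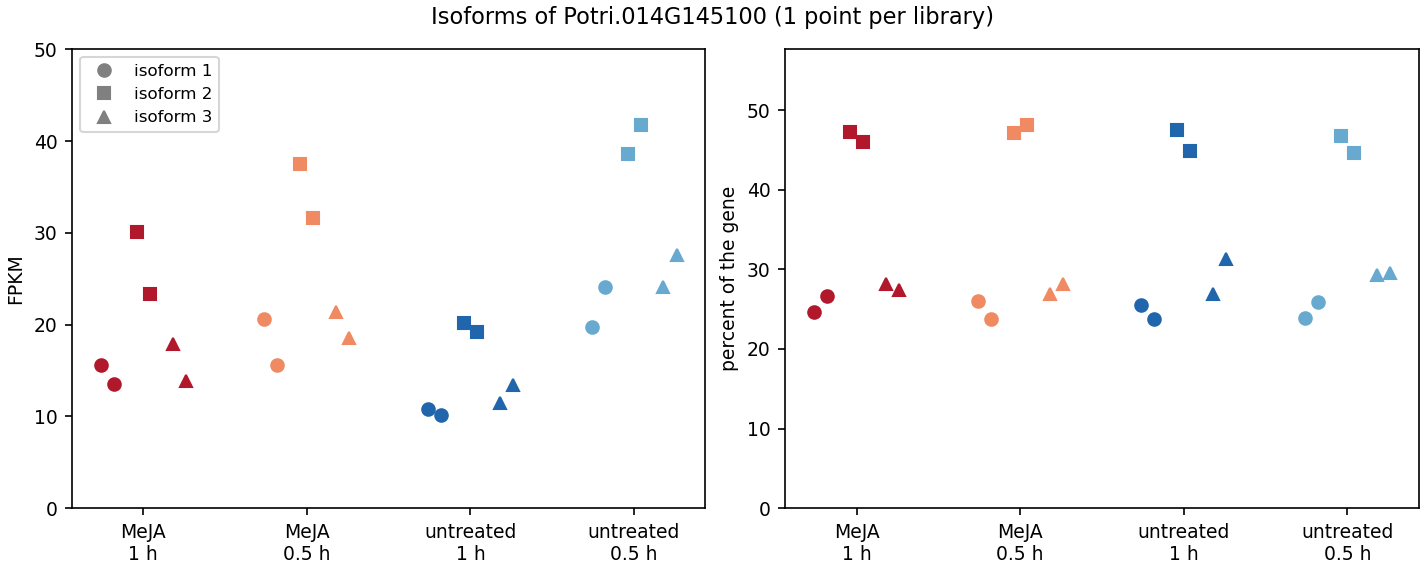
FPKM (left) and percent of the gene (right) of the 3 isoforms of Potri.014G145100 in each library, with groups on the horizontal axis and 1 point per library. All 3 isoforms are lowest in untreated cuttings at 1 h, while isoform 2 keeps 44.6% to 48.1% of the gene.

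Genes beside the loci by identifier gave a local comparison. Next to the pair on chromosome 1, Potri.001G051400 stood at 9.57 and 7.43 FPKM and Potri.001G051700 at 10.7 and 8.89 FPKM in MeJA 1 h replicates 1 and 2, so neither had a gap like that of the pair between them. Next to the copies on chromosome 3, Potri.003G176600 stood at 9.37 and 8.33 FPKM and Potri.003G177000 at 34.95 and 33.8 FPKM in those libraries. Potri.003G177000 rose in untreated cuttings, at 40.5 ± 5.0 FPKM at 1 h and 19.7 ± 1.2 FPKM at 0.5 h (SD, n = 2 each; limma adjusted p = 6.2e-05). In the same comparison Potri.003G176600 fell by 0.48 on the log2 scale (limma adjusted p = 0.0064) and Potri.001G051700 fell by 0.35 (limma adjusted p = 0.027). Potri.001G051400 differed by 0.24 and was not called (limma adjusted p = 0.19).

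The neighbours of Potri.014G145100 were added after their values were seen. Potri.014G145000 averaged 3.57 ± 0.035 FPKM in untreated cuttings at 1 h and 9.41 ± 1.0 FPKM at 0.5 h, a log2 change of -1.19 (limma adjusted p = 8.3e-05). It also stood lower with MeJA than without at 0.5 h, at 6.34 ± 0.30 FPKM against 9.41 ± 1.0 FPKM (limma adjusted p = 0.48). At 1 h it stood higher with MeJA, at 4.21 ± 0.59 FPKM against 3.57 ± 0.035 FPKM (limma adjusted p = 0.94). Potri.014G145200 averaged 20.0 ± 1.1 FPKM at 1 h and 26.8 ± 0.70 FPKM at 0.5 h in untreated cuttings (SD, n = 2 each; limma adjusted p = 0.006). Whether neighbouring genes share reads was not resolved.

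The tested genes whose level most resembled the summed chalcone synthase level were found by Pearson correlation of log2(FPKM + 1) over the 8 libraries. These were Potri.017G086200 (r = 0.99), Potri.004G019000 (0.98), Potri.003G129100 (0.97), Potri.001G120900 (0.97) and Potri.007G000300 (0.97). Of 24344 tested genes outside the family, 382 reached 0.9, so the genes named are not the only close matches. Potri.017G086200 ranged from 0.398 to 1.68 FPKM, near the filter of 1 FPKM. Potri.003G129100 covered the widest range, at 23.9 ± 9.1 FPKM with MeJA at 1 h, 43.1 ± 15 FPKM with MeJA at 0.5 h, 11.5 ± 0.81 FPKM untreated at 1 h and 63.2 ± 2.9 FPKM untreated at 0.5 h (SD, n = 2 each). The order of its group means follows from the choice of genes by their likeness to the summed level.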

How the data were processed

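RNA-seq of 8 libraries in 4 groups of 2 was used, grouped by the sample labels. Each library came as a single table with a value per transcript, deposited by the authors. The unit is stated neither in the headers nor in the labels and was taken as FPKM: deposited values are not whole, sum to 549538 to 577002 per library and come in whole-read steps. The submitters' processing notes name Bowtie2 2.2.3 and HISAT2 2.1.0 without roles. No quantifier, build, annotation or strand setting was stated in the sources used here. Each table lists 65535 transcripts and ends within chromosome 17. Genes past that point are missing from every percentile and share of genes given here.

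Transcripts were summed per gene. Genes with at least 1 FPKM in 2 libraries were tested on log2(FPKM + 1) in limma 3.58.1 (R 4.3.3; trend, robust), with 4 group means and contrasts, or an additive model for both treatments. Benjamini-Hochberg adjustment ran over 24347 genes. The fit was tested on simulated data. Relative depth is the most frequent ratio between libraries of single-isoform genes under 1 FPKM. Named genes are the 6 loci, the tested neighbours by identifier of the tandem copies, and the 5 genes most correlated with the summed level. The neighbours of Potri.014G145100 fall outside this rule and were added after their values were seen. Loci and lists were chosen with earlier results of these data known. A planned list of pathway genes by product name was not run. Same-numbered replicates gave correlations of deviations of -0.12 to 0.033 and were not treated as pairs.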

Additional observations from a re-analysis of the deposited data

Results flagged for a closer look

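The MeJA difference of Potri.014G145100 went opposite ways at the 2 times in every library. Both MeJA libraries lay above both untreated ones at 1 h, and both lay below at 0.5 h. Potri.014G145000, next to it by identifier, showed the same pattern, with an interaction of 0.69 (limma adjusted p = 0.33). The share of all tested genes with this pattern was not computed. For Potri.014G145100 the MeJA by time interaction was 0.68 ± 0.19 on the log2 scale (SE; limma adjusted p = 0.34). Leaving out 1 library at a time gave 0.52 to 0.84, with limma adjusted p of 0.25 to 0.66.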

How the results depend on the processing

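The untreated fall of Potri.014G145100 was called in each alternative run, from -1.11 to -0.81 (log2), and its fall over both treatments in each as well. For 3 loci and 6 comparisons, 249 of 264 alternative values kept direction and side of the threshold, 3 newly passed it and 12 changed sign. The changes of sign were all in tandem copies that were not called. Leaving out 1 library at a time, the count of called loci ranged from 0 to 1 for MeJA over time and from 1 to 2 over both treatments. The added calls were Potri.014G145100 without MeJA 1 h replicate 1 and, without replicate 2, Potri.003G176900, at 1.52 with MeJA and 0.77 over both treatments. The lone library is then assumed to vary like the other groups, and the cause was not tested. Sign changes for Potri.003G176800 were -0.0099 with a pseudocount of 0.1 (MeJA over time), and 0.075 after quantile normalization and 0.069 after median centring (both treatments). With 1 library left out its range was -0.49 to 0.51 for MeJA over time, -0.33 to 0.068 for both treatments, -0.28 to 0.022 and -0.39 to 0.61 for MeJA at 0.5 h and 1 h, and -0.26 to 0.74 for the interaction. For Potri.003G176900 it was -0.21 to 1.52 for MeJA over time, -0.68 to 1.05 for MeJA at 1 h and -0.48 to 1.25 for the interaction. The replicate block changed no call: it gave 1 called locus for untreated time, 0 for time with MeJA, 1 for both treatments and 0 for the MeJA comparisons and the interaction. By the most abundant transcript alone Potri.014G145100 averaged 30.3 FPKM and 82.2% of the summed level, against 65.1 FPKM and 90.6%. Low read numbers limit the 3 loci below the filter.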
